A study of Gallus gallus with 8 samples.

Results

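In cultures of migrating chicken cranial neural crest, 175 of 17108 genes kept a mean level near that of untreated cells at 1 µg/ml of DAN protein and stood apart at 10 µg/ml. Of these genes 70 were raised and 105 were lowered. A gene was counted when its untreated mean was at least 1 RPKM, a read count scaled to gene length and library depth. Its mean at 1 µg/ml had to lie within a range called the low-dose window here, from 20% below to 25% above the untreated mean. Its mean at 10 µg/ml had to be at least 1.6 times the untreated mean with all 3 libraries above the other 5, or at least 1.6-fold lower with all 3 below the other 5. The words raised and lowered name these lists and not the outcome of a test. Every library took part in choosing the genes, so levels, ratios and the separation of the groups are given as descriptions and carry no test.

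The cells came from leghorn chicken embryos at Hamburger and Hamilton stage 8. Pieces of neural tube spanning rhombomeres 3 to 5 were plated on fibronectin and poly-D-lysine, and the crest cells that crawled out overnight were harvested after the tube and any ectoderm had been lifted away. All cultures shared this handling and medium. The groups were untreated cells (2 libraries, replicates 2 and 3), cells with 1 µg/ml of DAN (3 libraries) and cells with 10 µg/ml of DAN (3 libraries), and each library was made from 200 to 1000 cells. The labels do not say whether several tubes were pooled in a library. The files pair no Ensembl ID with a gene symbol, so crest markers could not be checked and no gene can be given a role. In such bulk samples, fewer cells of a type and less RNA per cell cannot be told apart.

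Neural crest cells form at the border of the neural plate, leave the dorsal neural tube and migrate through the head, where they give rise to bone, cartilage, glia, neurons and pigment cells. Bone morphogenetic proteins (BMPs) help to induce and pattern the crest. DAN, encoded by NBL1, is secreted and binds BMP-family ligands away from their receptors. How much signalling remains in the presence of such an antagonist depends on the amounts of ligand and antagonist, and target genes of a morphogen pathway can differ in the signalling level at which they respond.

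Most genes that stood apart at the high dose had a low-dose mean beyond the window on the same side. Among genes with an untreated mean of at least 1 RPKM (9644 genes), 290 were at least 1.6-fold higher at 10 µg/ml with all libraries above the other 5. Of these 290 genes, 70 (24.1%) had a low-dose mean inside the window, 219 (75.5%) lay above it and 1 lay below it. On the lower side 666 genes met the fold and the separation, of which 105 (15.8%) lay inside the window, 557 (83.6%) below it and 4 above it. The genes shifted only at the high dose were therefore the smaller part of the high-dose shifts in both directions. They made up 1.59% (raised) and 2.39% (lowered) of the 4392 genes inside the window. The window itself held 45.5% of the 9644 genes, so a low-dose mean outside it was common. Both ratios divide by the same untreated mean, and an untreated library that is off moves both.

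**Figure D1:**
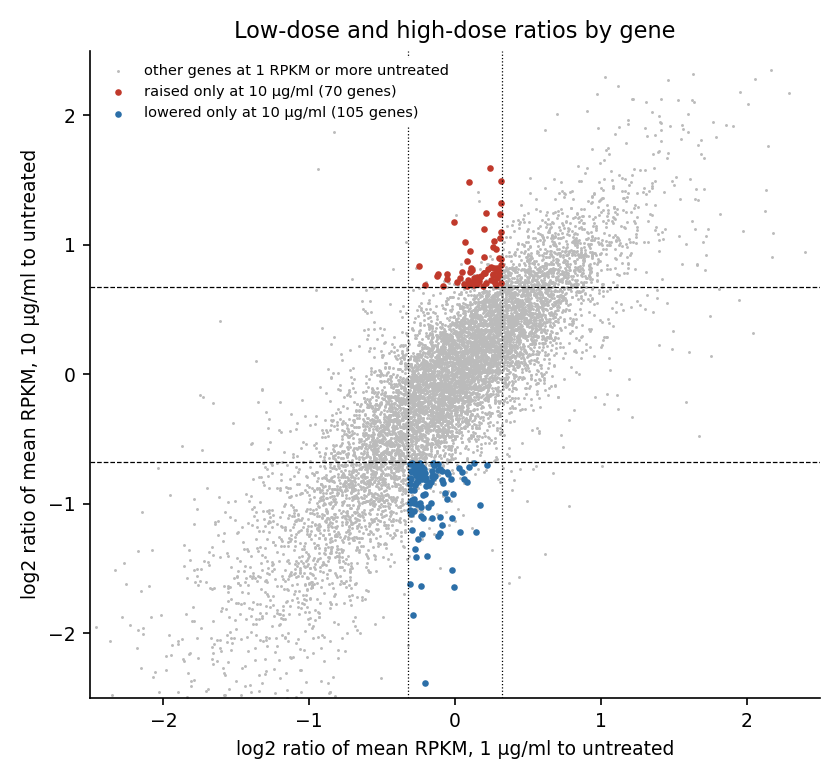
Each point is a gene with an untreated mean of at least 1 RPKM, placed by the log2 ratio of its mean RPKM at 1 µg/ml (horizontal) and at 10 µg/ml (vertical) to the untreated mean; dotted lines mark the low-dose window and dashed lines the fold required at 10 µg/ml, and 156 genes lie outside the axes. The 70 raised and 105 lowered genes fill the upper and lower part of the strip between the dotted lines, close to the diagonal cloud of the other genes.

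The mirrored pattern, a shift at the low dose that was gone at the high dose, was rarer in number but took a like share. By the same thresholds 25 genes were raised and 19 lowered only at 1 µg/ml, 44 in all against 175. These were 28.7% of the 87 genes raised at 1 µg/ml and apart from the other 5 libraries, and 21.1% of the 90 genes lowered in that way. The shares inside the window at the high dose, 24.1% and 15.8%, were a few points lower. Both patterns are measured against the same 2 untreated libraries.

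The shifts were mostly modest. The raised genes stood at 1.602 to 3.02 times their untreated mean at 10 µg/ml, with a median of 1.71, and 12 of 70 reached 2-fold. The lowered genes were 1.604-fold to 5.22-fold below untreated, with a median of 1.76-fold, and 28 of 105 reached 2-fold. At the edge of the fold threshold, the nearest raised genes inside were at 1.6018 and 1.6028 times untreated and the nearest outside at 1.5988 and 1.5921. The nearest lowered genes inside were both at 0.6232 times untreated and the nearest outside at 0.6262 and 0.6271.

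Within the window the genes did not sit around no change. Of the 70 raised genes, 62 (88.6%) had a low-dose mean above untreated and 8 below it. Of the 105 lowered genes, 95 (90.5%) had a low-dose mean below untreated and 10 above it. The median low-dose ratio was 1.14 for raised and 0.858 for lowered genes, while all genes of the window had a median of 1.00 and lay above untreated in 50.9% of cases. The low-dose mean was 11% to 25% above untreated for 40 raised genes and 10% to 20% below it for 69 lowered genes. Both ratios of a gene share its untreated mean, so a low or high untreated library moves both in the same direction.

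**Figure D2:**
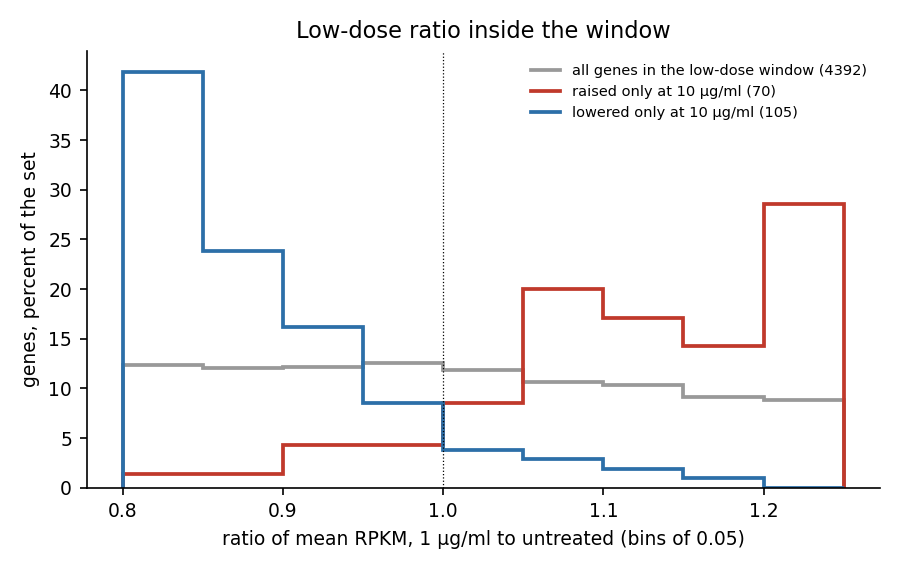
The horizontal axis gives the ratio of mean RPKM at 1 µg/ml to untreated in bins of 0.05 and the vertical axis the percent of each set; grey is all 4392 genes of the window, red the 70 raised and blue the 105 lowered genes. The grey line is nearly flat, while 62 of the 70 raised genes lie to the right of 1 and 95 of the 105 lowered genes to the left of it.

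At the outer edge of the window the lists ran straight into genes whose low-dose mean lay just beyond it. The raised genes nearest the edge inside it had low-dose ratios of 1.2465 and 1.24641, and the nearest outside had 1.25002 and 1.25462. For lowered genes the values were 0.8053 and 0.806 inside, and 0.7992 and 0.7966 outside. With a window from 10% below to 11% above untreated the lists held 28 raised and 34 lowered genes.

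For some members the libraries at 1 µg/ml did not overlap the untreated ones, although the low-dose mean stayed within the window. All 3 libraries at 1 µg/ml lay above both untreated ones for 15 of the 70 raised genes (21.4%), and 7.7% of all window genes were above in this way (21.2% of all genes with at least 1 RPKM untreated). All 3 lay below both untreated ones for 18 of the 105 lowered genes (17.1%), against 5.94% of window genes and 20.3% of all genes with at least 1 RPKM untreated. In the opposite direction there were 0 raised genes and 1 lowered gene. These shares rest on the libraries that chose the genes. The members' shares were near those of all genes with at least 1 RPKM untreated, so no low-dose response is read from them.

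Against the low dose itself, where the untreated libraries do not enter the ratio, the high-dose shift of the members was smaller. The rule asked for a fold against untreated cells and for none against 1 µg/ml, so the choice of genes favours this order. The ratio of the means at 10 and 1 µg/ml ran from 1.31 to 2.62 for raised genes, with a median of 1.53. The lowered genes were 1.31-fold to 4.53-fold below the 1 µg/ml mean, with a median of 1.597-fold. Only 30 of the 70 raised and 52 of the 105 lowered genes passed the same fold limits when 1 µg/ml took the place of untreated cells. The separation rule placed every member's 3 libraries at 10 µg/ml beyond all 3 at 1 µg/ml.

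The gap between the groups was narrow for many members. The lowest library at 10 µg/ml of a raised gene stood at 1.01 to 1.61 times the highest of the other 5, with a median of 1.19, and the gap reached 25% for 19 genes. For lowered genes the lowest of the other 5 stood at 1.00 to 1.99 times the highest library at 10 µg/ml, with a median of 1.19 and a gap of at least 25% for 36 genes. The library nearest to the 10 µg/ml group was 1 of the 3 at 1 µg/ml for 60 of the raised genes and untreated replicate 3 for the other 10. Among lowered genes it was a 1 µg/ml library for 70 and an untreated one for 35.

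The libraries of a group did not share the shift evenly. For raised genes the median log2 ratio to the untreated mean was 0.90, 0.73 and 0.72 in replicates 1, 2 and 3 at 10 µg/ml. It was 0.19, 0.17 and 0.24 in replicates 1, 2 and 3 at 1 µg/ml, and -0.15 and 0.14 in untreated replicates 2 and 3. Replicate 1 at 10 µg/ml was thus the furthest from untreated, and was the highest of its group for 45 of the 70 genes (64.3%), against 36.9% of all window genes.

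Among lowered genes replicate 1 at 10 µg/ml was again the furthest from untreated. Their medians at 10 µg/ml were -1.002, -0.76 and -0.83 in replicates 1, 2 and 3. The medians were -0.24, -0.16 and -0.22 at 1 µg/ml, and 0.11 and -0.12 in untreated replicates 2 and 3. Replicate 1 at 10 µg/ml was the lowest of its group for 73 of the 105 genes (69.5%), against 30.1% of window genes. Replicate 2 at 10 µg/ml was the one nearest to the other groups for 39 raised and 63 lowered genes.

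**Figure D3:**
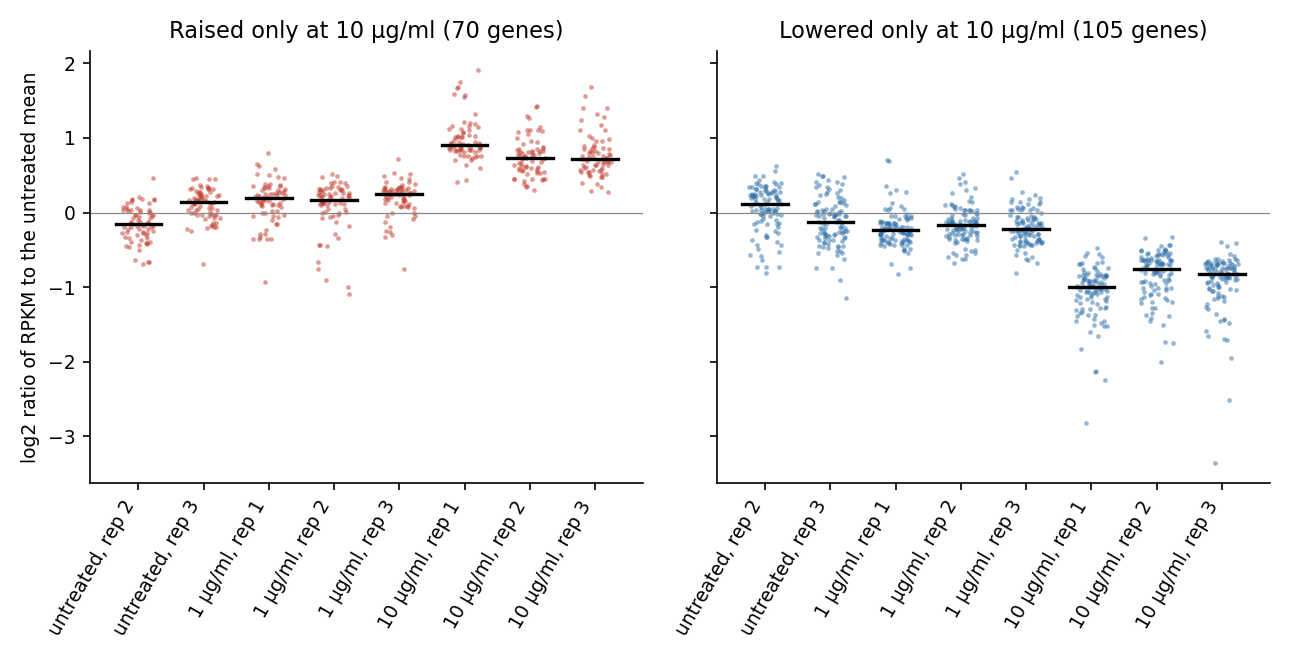
Each point is a member, with the log2 ratio of its RPKM in a library to its untreated mean on the vertical axis and the 8 libraries on the horizontal axis; black bars are medians over members. The 3 libraries at 1 µg/ml have medians from 0.17 to 0.24 for raised and from -0.24 to -0.16 for lowered genes, between the untreated libraries and the 10 µg/ml libraries, and replicate 1 at 10 µg/ml lies furthest out in both panels.

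The raised gene with the largest change was ENSGALG00000003837, whose reads covered a gene model of 3609 bases. Its RPKM was 1.34 and 2.29 in untreated replicates 2 and 3, 2.10, 1.34 and 3.00 at 1 µg/ml, and 5.80, 4.83 and 5.86 at 10 µg/ml. All 3 high-dose libraries stood clear of the rest, while untreated cells and cells at 1 µg/ml overlapped in part. The group means were 1.82 ± 0.670 RPKM (SD, n = 2), 2.15 ± 0.827 RPKM (SD, n = 3) and 5.50 ± 0.574 RPKM (SD, n = 3). The mean at 10 µg/ml was 3.02 times untreated and 2.56 times that at 1 µg/ml. Against untreated replicate 2 alone the low-dose ratio was 1.598 and the high-dose ratio 4.09, and against replicate 3 alone they were 0.937 and 2.40, so the low-dose value lay inside the window with replicate 3 and outside it with replicate 2.

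ENSGALG00000010243, with a gene model of 978 bases, had the highest untreated mean among raised genes. Its RPKM was 2568 and 5558 in untreated replicates 2 and 3, 4378, 5179 and 5085 at 1 µg/ml, and 7570, 6265 and 6291 at 10 µg/ml. The untreated libraries spanned a wider range than the 3 at 1 µg/ml, and the higher one came close to the high-dose group. Means were 4063 ± 2114 RPKM (SD, n = 2), 4881 ± 438 RPKM (SD, n = 3) and 6709 ± 746 RPKM (SD, n = 3). The ratio of 1.65 at 10 µg/ml became 2.61 against untreated replicate 2 alone and 1.21 against replicate 3 alone. The low-dose ratio of 1.20 became 1.90 and 0.878, and the gene met the rule with neither untreated library alone.

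ENSGALG00000028993 had the largest change among lowered genes and rested on few reads. Its 127-base gene model held 24 and 13 reads in untreated replicates 2 and 3, 33, 28 and 15 at 1 µg/ml, and 7, 3 and 2 at 10 µg/ml. The RPKM values were 3.41 and 0.997 untreated, 1.24, 3.04 and 1.46 at 1 µg/ml, and 0.504, 0.547 and 0.214 at 10 µg/ml. The high-dose libraries were the lowest, and the other 2 groups overlapped. The means of 2.20 ± 1.70 RPKM (SD, n = 2), 1.91 ± 0.982 RPKM (SD, n = 3) and 0.422 ± 0.181 RPKM (SD, n = 3) put it 5.22-fold below untreated at 10 µg/ml. Its low-dose ratio of 0.868 became 0.561 against untreated replicate 2 alone and 1.92 against replicate 3 alone, outside the window either way.

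ENSGALG00000007606, with a gene model of 932 bases, had the highest untreated mean among lowered genes and the closest untreated pair of the 4. Its RPKM was 645 and 659 untreated, 614, 507 and 586 at 1 µg/ml, and 320, 409 and 381 at 10 µg/ml. The order of the groups followed the dose, since all 3 libraries at 1 µg/ml lay below both untreated ones and above all 3 at 10 µg/ml. Means were 652 ± 9.75 RPKM (SD, n = 2), 569 ± 55.4 RPKM (SD, n = 3) and 370 ± 45.3 RPKM (SD, n = 3), 1.76-fold below untreated at the high dose. The low-dose ratio of 0.873 was 0.882 and 0.864 against untreated replicates 2 and 3 alone, and the high-dose ratio of 0.568 was 0.574 and 0.562. This gene met the rule whichever of the 8 libraries was left out.

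**Figure D4:**
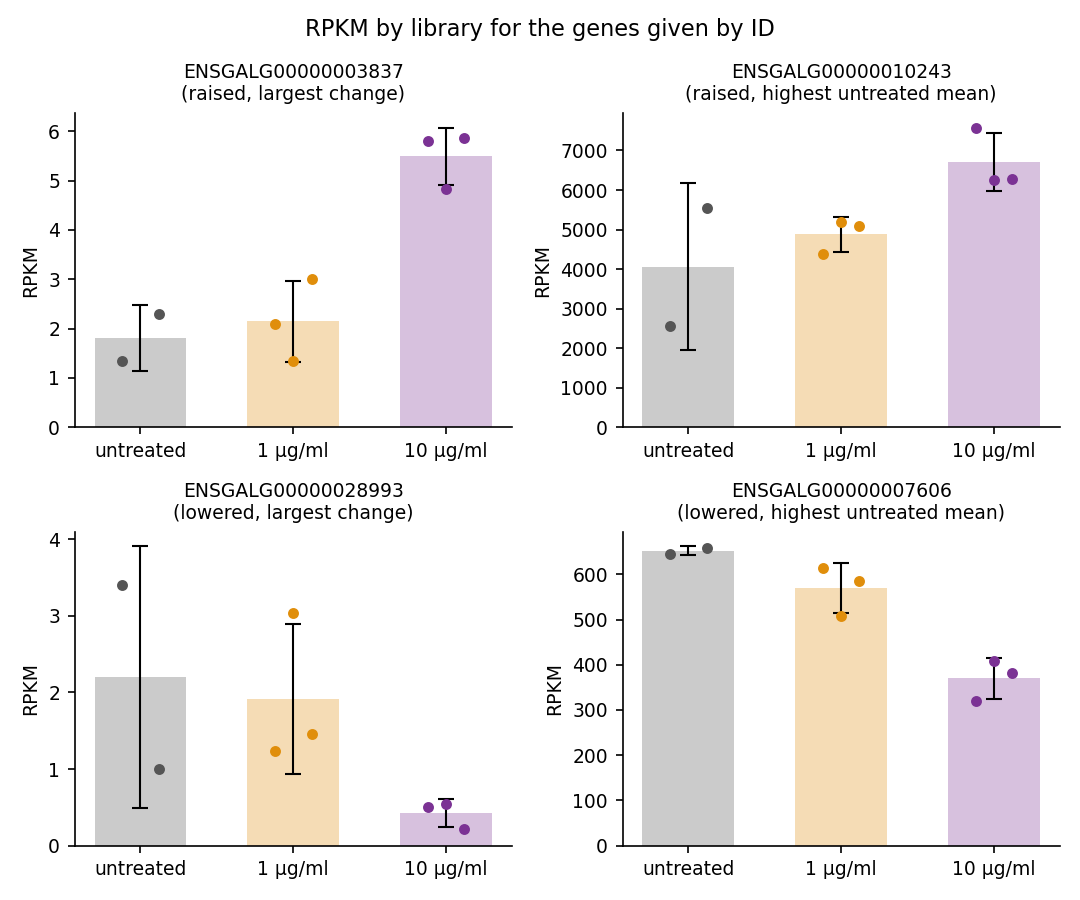
RPKM on the vertical axis in untreated cells, at 1 µg/ml and at 10 µg/ml for 4 genes, with a point per library, bars for the group mean and error bars for 1 SD (n = 2 untreated, n = 3 at each dose). The untreated pair lies close together for ENSGALG00000007606, at 645 and 659 RPKM, and far apart for ENSGALG00000010243, at 2568 and 5558 RPKM.

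Untreated levels ran from the minimum of the rule to highly expressed genes, with few members at the top. Among raised genes the untreated mean ran from 1.03 to 4063 RPKM with a median of 11.1, and among lowered genes from 1.10 to 652 RPKM with a median of 6.40. The window genes as a whole had a median of 14.5 RPKM and reached 13053 RPKM. The raised list held 28 genes from 1 to 5 RPKM, 21 from 5 to 50 RPKM, 20 from 50 to 500 RPKM and 1 above that. The lowered list held 40, 53, 11 and 1 genes in these classes. Above 500 RPKM lay 1.43% of raised, 0.952% of lowered and 5.42% of window genes. Raised genes thus had 28.6% of their number between 50 and 500 RPKM, lowered genes 10.5% and window genes 23.8%.

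The lowered list held few long gene models. The median length was 1765 bases for raised and 1726 bases for lowered genes, against 1963 bases for all genes with at least 1 RPKM untreated, and the upper quartiles were 2823, 2269 and 3278 bases. All these genes were put in 10 classes of equal size by length. The shortest class held 19 lowered genes and the 3 longest held 5, 5 and 3. Counted from the shortest, classes 5 and 6 held 19 and 17 lowered genes, and class 2 held 6. For raised genes the shortest class held 6 and the 3 longest 4, 4 and 9. Models shorter than 300 bases made up 4 of the 70 raised genes (5.71%) and 8 of the 105 lowered genes (7.62%), near the 6.49% of all genes with at least 1 RPKM untreated. These short genes had as few as 14 to 26 reads (raised) and 2 to 167 reads (lowered) in their poorest library. Over all members, 9 raised and 26 lowered genes had a library with fewer than 100 reads.

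In the fit over all genes, about as many members were called at the high dose as were not. Against untreated cells, 34 of 70 raised genes (48.6%) and 55 of 105 lowered genes (52.4%) had a Benjamini-Hochberg adjusted p under 0.05 in edgeR's quasi-likelihood test. Over all 14085 genes tested, 7.23% were called higher and 9.13% called lower. The rule used this contrast, so the difference from the background follows from the choice of genes. The number called hung on single libraries and on the tool, and so did the number over all genes. Without replicate 1 at 10 µg/ml edgeR called 4 raised and 3 lowered members, beside 1.41% and 2.21% of all genes. In limma, voom values with quality weights gave 0 calls in either list, beside 0.156% and 1.52%. DESeq2 called 56 and 88 members, beside 12.5% and 14.3% of the genes with an adjusted p. Some other fits stayed close to the first and some did not. Among the close ones, limma on log2(RPKM + 1) called 36 and 54 members, beside 7.63% and 9.46% of all genes. With DESeq2 size factors edgeR called 34 and 56, beside 7.31% and 9.4%. With the replicate numbers as a block, edgeR called only 12 and 13 members, beside 3.45% and 4.64% of all genes. Restricted to the groups compared, it called 7 and 10, beside 2.16% and 4.28%. The 36 raised genes that were not called had a median untreated level of 4.73 RPKM against 35 RPKM for those called, and the 50 uncalled lowered genes 3.93 RPKM against 16.8 RPKM. The untreated libraries were at least 1.6-fold apart for 11 of the 36 uncalled raised genes and 3 of the 34 called, and for 25 of the 50 uncalled lowered genes and 7 of the 55 called.

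With all 8 libraries, edgeR called no member (0 genes) between the doses or at the low dose. The separation of the 10 µg/ml libraries from those at 1 µg/ml and the low-dose window were both part of the rule, so nothing is read from the members' shares in these contrasts. At 10 against 1 µg/ml, it called 0 of 70 raised and 0 of 105 lowered genes at an adjusted p under 0.05, and 0% of all genes in either direction. At an unadjusted p under 0.05 there were 59 raised and 87 lowered members, beside 4.87% and 6.52% of all genes. DESeq2 called 20 and 23 members after adjustment, beside 0.718% and 1.24% of the genes to which it gave an adjusted p. At 1 µg/ml against untreated, 0 raised and 0 lowered members were called by edgeR, which called 1.51% of all genes higher and 1.3% lower. At an unadjusted p under 0.05 there were 0 members in either list, beside 12.9% and 13.1% of all genes, and DESeq2 called 0 and 0, beside 7.85% and 8.13%. The low-dose window had kept out genes with large low-dose changes. The members' median log2 fold changes in this fit were 0.77 and -0.82 at 10 µg/ml against untreated, 0.61 and -0.67 at 10 against 1 µg/ml, and 0.18 and -0.23 at 1 µg/ml against untreated, beside medians of -0.02, -0.02 and -0.03 over all genes tested.

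Of the 8 libraries, the 2 untreated ones bore most on which genes belonged to the lists. Each of them makes up more of its group than a DAN library does, and both ratios of the rule divide by the untreated mean. The libraries are therefore not compared on equal terms. The untreated pair also differed more than the libraries of either dose. The median SD within a group was 24.2% of its mean untreated, 11.9% at 1 µg/ml and 12.3% at 10 µg/ml, over genes with at least 1 RPKM untreated. The voom quality weights were 0.33 for both untreated libraries and 1.02 to 2.35 for those with DAN. What this difference adds to the membership was not tested. Without untreated replicate 2, 27 of the 70 raised genes and 36 of the 105 lowered genes still met the rule. Without untreated replicate 3, 27 raised and 35 lowered genes still met it. The lists themselves stayed about as long, with 80 and 70 raised and 114 and 119 lowered genes, because 43 to 84 other genes entered. Only 14 raised and 19 lowered members met the rule with each untreated library alone, and 30 raised and 53 lowered members met it with neither. The untreated libraries differed by at least 1.6-fold for 14 of the raised genes (20.0%) and 32 of the lowered genes (30.5%), against 29.0% of window genes.

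With untreated replicate 3 alone the lost genes mainly failed at the high dose, and with replicate 2 alone mainly at the low dose. Against replicate 3 alone, 33 of 43 lost raised genes and 47 of 69 lost lowered genes no longer reached the fold at 10 µg/ml. Against replicate 2 alone, 36 of 43 lost raised genes and 57 of 70 lost lowered genes had a low-dose ratio outside the window. Untreated replicate 2 was the higher of the pair for 21 raised genes (30.0%) and 69 lowered genes (65.7%), against 44.7% of window genes.

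**Figure D5:**
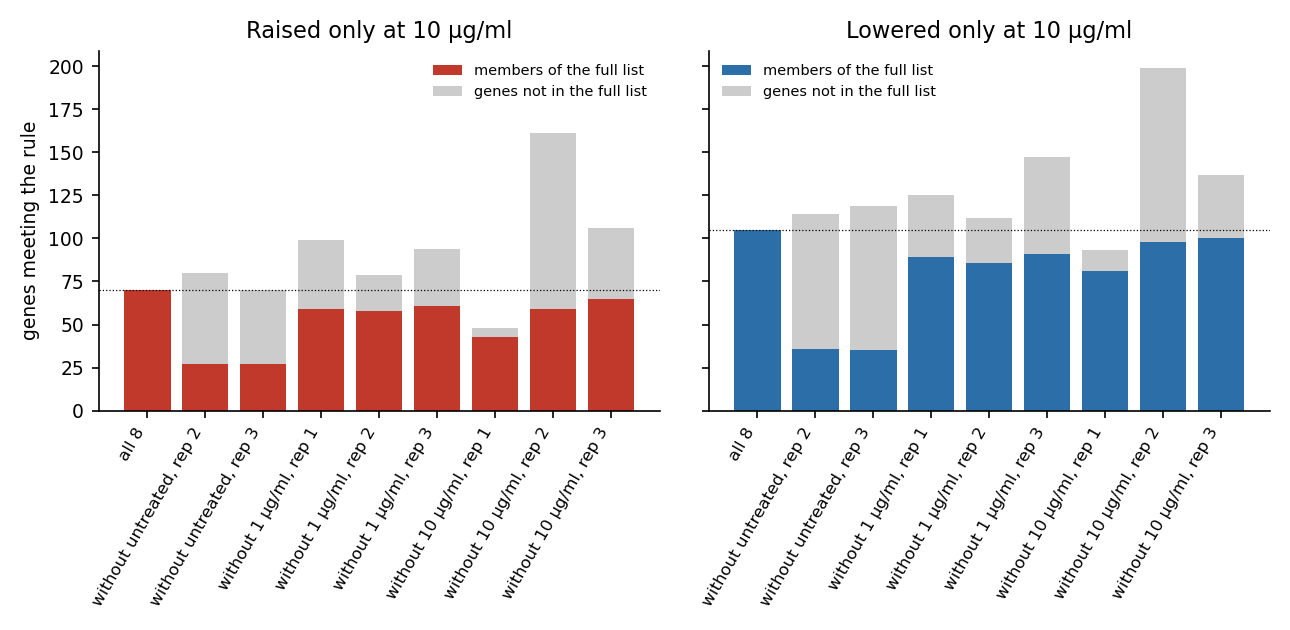
Bars give the number of genes meeting the rule with all 8 libraries and with each library left out; the coloured part counts members of the full list, the grey part genes that entered, and the dotted line marks 70 raised and 105 lowered genes. Without either untreated library the coloured part drops to 27 raised and 35 or 36 lowered genes, and without replicate 2 at 10 µg/ml the lists grow to 161 and 199 genes.

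Leaving out a library with DAN kept more of the members, from 61.4% to 92.9% of raised and from 77.1% to 95.2% of lowered genes. Without replicate 1 at 10 µg/ml, the library furthest from untreated, 43 raised and 81 lowered members were kept in lists of 48 and 93 genes. Without replicate 2 at that dose, which lay nearest to the other groups, 59 raised and 98 lowered members were kept in lists of 161 and 199 genes. The raised list also grew to 106 genes without replicate 3 at 10 µg/ml. Fewer libraries must stand apart when a high-dose library is left out, which eases the separation. The lists grew without replicates 2 and 3 but shrank without replicate 1.

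A small core met the rule whichever single library was left out: 4 raised and 11 lowered genes. The 4 raised genes stood at 1.71 to 2.03 times untreated at 10 µg/ml and at 1.03 to 1.20 times at 1 µg/ml, with untreated means from 1.605 to 56.0 RPKM. The 11 lowered genes stood at 0.447 to 0.572 times untreated at 10 µg/ml and at 0.834 to 1.04 times at 1 µg/ml, with untreated means from 2.07 to 652 RPKM. Their untreated libraries differed by at most 1.29-fold (raised) and 1.31-fold (lowered). At 10 µg/ml against untreated, edgeR called 3 of the 4 and 8 of the 11, beside 7.23% and 9.13% of all genes. This core was picked on the same values and gets no test of its own. When the rule also had to hold under the other scalings and normalised CPM given below, 1 raised and 10 lowered genes remained. Gene models of the 11 lowered genes were as short as 79 bases, with as few as 7 reads in a library. Of the 4 genes given by ID, the core of 4 raised and 11 lowered genes holds ENSGALG00000007606 and none of the other 3.

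Scaling to library totals alone changed the raised list more than the lowered one, and DESeq2 size factors kept at least 84.8% of either list. With DESeq2 size factors 64 of the 70 raised and 89 of the 105 lowered genes met the rule. Scaled to library totals alone, 26 raised and 78 lowered members met it, in lists of 31 and 151 genes. Together, 24 raised and 69 lowered members met the rule under both of these and under normalised CPM with a minimum of 1 CPM. Normalised CPM uses the same adjusted library totals as the deposited RPKM. Within a gene its ratios are the same, and in effect only the minimum level differs. It is therefore no check of the scaling. No member (0 genes) entered the list of the opposite direction under any alternative rule, scaling or left-out library. The separation of the libraries largely fixed this in advance, so nothing is read from it.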

How the data were processed

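The values analysed are the authors' deposited raw read counts, whole numbers by Ensembl gene, and the RPKM table that the authors deposited for the same 17108 genes. Per the submitters' processing notes, the build was galGal4 and the tools were edgeR 3.12.0, FastQC 0.10.1, TopHat2 2.0.13 and bedtools, without a role for each. The handling of strand and of reads with several mapping places was not given in the sources used here; genes with near-identical copies or overlapping neighbours carry that uncertainty. The SMART-seq low-input kit, per the labels' protocols, adds no molecular identifiers, and PCR copies count as reads.

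Total counts ran from 44338765 to 199084828 per library. Libraries of a group differed beyond counting noise (chi-square per degree of freedom from 67.9 to 341, the highest for the untreated pair). None was therefore taken for a copy of another, which does not show that they are independent. The labels speak of biological replicates without naming separate embryos, so p-values measure the spread between these libraries. Gene length was taken from deposited count over RPKM, whose ratio scaled between libraries as TMM-adjusted totals within 0.0136% (5133 genes). The rule was applied to the deposited RPKM with pandas 2.3.3.

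Counts were tested with edgeR 4.0.16 (quasi-likelihood, TMM, all 8 libraries in 1 fit, filterByExpr with a minimum count of 10, 2-sided, p adjusted over all 14085 genes). Alternatives used DESeq2 1.42.0, limma 3.58.1 on voom values or on log2(RPKM + 1), and statsmodels 0.14.6. The scripts were tested on simulated data. The members, gene lists and alternatives were chosen with earlier results of these data known. No ID (0) matched the 25635 genes of the reference table, so the gene lists for pathways and cell types were not tested. The genes given by ID are the member with the largest ratio change and the one with the highest untreated mean in each direction.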

Additional observations from a re-analysis of the deposited data

How the results depend on the processing

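The count of 70 raised genes became 31 when scaled to library totals alone, 42 with a minimum of 5 RPKM, 111 with no minimum and 28 with a low-dose window from 10% below to 11% above untreated. The count of 105 lowered genes became 65 with a minimum of 5 RPKM and 34 with the narrower window. The minimum and the window act by their construction, and for the scaling the cause was not tested. Under the other alternatives that kept all 8 libraries, the list lengths stayed within 1.5 times. Of these, the removed length trend (96 raised, 99 lowered) and the limit to genes of at least 300 bases (66 and 97) were chosen after seeing the data. Membership changed more than length. Of the 70 raised genes, a pseudocount of 1 RPKM kept 42, medians in place of means 49 and the removed length trend 48. Of the 105 lowered genes these kept 57.14%, 74.29% and 60.95%. With a library left out, the lists ran from 48 to 161 raised and from 93 to 199 lowered genes.

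At 10 µg/ml against untreated, the first fit called 34 of the 70 raised and 55 of the 105 lowered members. Counted over the same 70 and 105 members, the fit with a replicate block called 12 and 13 (3.45% and 4.64% of all genes). A fit restricted to the compared groups called 7 and 10 (2.16% and 4.28%). DESeq2 called 56 and 88, and voom with quality weights 0 and 0. The overlap with the 34 and 55 was not counted, and the cause was not tested. With a library left out, 4 to 47 raised and 3 to 70 lowered members were called. The fewest came without replicate 1 at 10 µg/ml. There the share of all genes called also fell, from 7.23% and 9.13% with all 8 libraries to 1.41% and 2.21%. The rule chose the members on values that include this replicate, so nothing is read from how far their calls fell beside those of all genes. The fits without untreated replicate 2 or replicate 3 leave a lone untreated library, and their calls at 10 µg/ml against untreated are not given. Without replicate 3 at 10 µg/ml the counts of members called were 12 and 14. In the fit without replicate 3 at 10 µg/ml, 3% and 3.96% of all genes were called. The lowered count was also 35 and 32 when replicates 1 and 2 at 1 µg/ml were dropped in turn, beside 7.19% and 6.76% of all genes. It was 29 without replicate 2 at 10 µg/ml, beside 6.04%. At 10 against 1 µg/ml, DESeq2 called 20 raised and 23 lowered members and the other alternatives 0, including the fits with a library left out, which ran from 0 to 0. At 1 µg/ml against untreated the only calls came without untreated replicate 3, with 4 raised and 6 lowered members (range 0 to 4 and 0 to 6), beside 13.4% and 10.5% of all genes. That fit takes the spread of the lone untreated library from the dosed groups. The labels do not say what replicate numbers mark. Deviations of same-numbered libraries had r across genes from -0.0252 to 0.0299 between untreated and dosed cells, and of 0.131, 0.185 and 0.0563 between the doses, where every library correlated best with its own number, a hint from the data. Not every pair passed 0.1, so the numbers were not taken as a pairing. In none of the 16 fits, over 3 contrasts, was a member called in the opposite direction (0 genes). The rule used the values of all these contrasts, so nothing is read from this either. Depth limits the short genes most, down to 2 reads in a library.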
